A study of Mus musculus with 44 samples.

Results

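The 10 genes described here encode liver enzymes that oxidise or reduce steroids: Hsd3b5, Hsd3b2, Hsd3b3, Hsd3b7, Hsd17b2, Hsd17b6, Hsd11b1, Akr1c6, Akr1d1 and Srd5a1. They were taken by symbol from a table of 35249 genes, and all 10 were among the 14862 genes with enough counts to be tested. The list was selected on results of these livers: the low level of Hsd3b5 in wild-type livers on the high-fat against the low-fat choline-deficient diet, a log2 change of -4.31, had already been seen. That comparison is therefore given below as a description with no test. The other comparisons were tested across all 14862 genes, but they share libraries with it or were made on the same 44 livers, and their p-values are not independent of that choice.

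Total RNA was sequenced from 44 mouse liver samples. The mice were wild type (WT), Ripk3-/- (Ripk3KO) or Mlkl-/- (MlklKO), and from 2 months of age ate normal chow (control) or a diet lacking choline, either low in fat (CD-LFD) or high in fat (CD-HFD), for 6 months. In necroptosis, a lytic form of programmed cell death, the kinase RIPK3 activates MLKL, which ruptures the plasma membrane. A diet without choline limits the export of fat from hepatocytes and is used to produce fatty liver and, with high fat, steatohepatitis. The groups held 6 WT samples per diet, 6, 3 and 4 Ripk3KO samples and 6, 4 and 3 MlklKO samples on control, CD-LFD and CD-HFD. Strain, sex, collection time and whether each sample came from its own mouse are not given in the sources used here, so p-values measure the spread between these samples.

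Hydroxysteroid dehydrogenases interconvert hydroxyl and keto groups on the steroid nucleus and thereby switch a hormone between more and less active forms. The liver is the main site where androgens, oestrogens, progestins and glucocorticoids are inactivated, and the same chemistry builds bile acids from cholesterol. In mice several of these genes differ between the sexes: Hsd3b5 is a marker of adult male liver and depends on the pulsatile pattern of growth hormone found in males. The 3-beta enzymes are named Hsd3b, the 17-beta enzymes Hsd17b, and HSD11B1 regenerates active glucocorticoid. The 5-alpha reductase Srd5a1, the 5-beta reductase Akr1d1 and the aldo-keto reductase Akr1c6 reduce steroids further.

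Libraries held 2476268 to 12471844 counts in 43 samples and 88204703 in WT CD-LFD replicate 3. Other values are CPM, counts scaled to library size and by TMM, a method that sets libraries to a common scale from the bulk of their genes. The values of Ddx3y, Xist, Ripk3 and Mlkl in this paragraph are CPM of the total count, without TMM. Every library had the male gene Ddx3y at 33.7 CPM or more. Xist was at most 1.91 CPM except in Ripk3KO CD-LFD replicate 3, where it reached 11.7 CPM. Ripk3 was at most 1.01 CPM in Ripk3KO livers, the highest being control replicate 5, and 0.439 to 5.94 CPM in WT livers. Mlkl in MlklKO livers was 1.24 to 2.61 CPM on control, overlapping WT (2.02 to 5.5 CPM), 2.83 to 3.93 CPM on CD-LFD (WT 10.3 to 17.9 CPM) and 3.55 to 14.4 CPM on CD-HFD (WT 17.2 to 22.6 CPM), the highest being CD-HFD replicate 1. Which exons the knockouts lack is not given in the sources used here, so these counts check the labels only in part. WT control libraries differed in clock phase: the log2 ratio of Arntl to Dbp, clock genes that peak at opposite times of day, ran from -7.47 to 2.63 there, against -4.87 to -3.6 in MlklKO control livers. On CD-LFD the WT livers (-2.63 to -0.27) did not overlap the Ripk3KO (-7.06 to -5.91) or MlklKO livers (-6.7 to -5.73). On CD-LFD, WT replicates 5 and 6 had 0.66% and 0.67% of counts on predicted genes, against 0.38% to 0.5% in the other WT CD-LFD libraries. They were left out only 1 at a time. WT CD-HFD libraries had 0.44% to 0.58%. WT control replicates 5 and 6 had 0.56% and 0.76% of counts on predicted genes, against 0.29% to 0.42% in the other control libraries. Where leaving these libraries out ended a call of the 10 genes, or moved a called value by over 1.5 times, the value without them is given below.

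Hsd3b5, Hsd3b2 and Hsd3b3 are neighbours on the minus strand of chromosome 3, and Hsd17b6 on chromosome 10 was the 1 gene of the 10 that was called higher on CD-HFD. The sequences around the annotated starts of these 4 genes are shown because the results turn on them. Each runs from 250 bases before the start to 30 bases after it, 5′ to 3′ on the minus strand, from RefSeq on GRCm38.p6, which is an earlier build than the GRCm39 named in the submitters' processing notes. Capitals mark the motifs found in the Hsd3b2 and Hsd3b3 windows.
Hsd3b5, chr3:98645505-98645784: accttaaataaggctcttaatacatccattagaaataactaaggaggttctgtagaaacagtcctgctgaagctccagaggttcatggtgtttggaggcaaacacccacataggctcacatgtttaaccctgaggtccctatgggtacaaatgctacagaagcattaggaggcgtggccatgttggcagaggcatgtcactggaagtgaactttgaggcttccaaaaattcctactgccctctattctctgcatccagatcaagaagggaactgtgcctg
Hsd3b2, chr3:98724514-98724793: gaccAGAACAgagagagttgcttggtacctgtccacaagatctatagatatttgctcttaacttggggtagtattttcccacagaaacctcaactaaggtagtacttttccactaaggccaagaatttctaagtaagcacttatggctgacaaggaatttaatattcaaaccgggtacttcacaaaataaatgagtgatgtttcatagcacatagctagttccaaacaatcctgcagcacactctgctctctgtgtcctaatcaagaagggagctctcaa
Hsd3b3, chr3:98763099-98763378: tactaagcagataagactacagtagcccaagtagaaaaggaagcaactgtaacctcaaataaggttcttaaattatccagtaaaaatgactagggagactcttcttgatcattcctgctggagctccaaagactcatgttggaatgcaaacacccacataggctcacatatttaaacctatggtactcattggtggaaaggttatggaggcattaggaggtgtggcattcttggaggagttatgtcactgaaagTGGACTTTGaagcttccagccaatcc
Hsd17b6, chr10:128007582-128007861: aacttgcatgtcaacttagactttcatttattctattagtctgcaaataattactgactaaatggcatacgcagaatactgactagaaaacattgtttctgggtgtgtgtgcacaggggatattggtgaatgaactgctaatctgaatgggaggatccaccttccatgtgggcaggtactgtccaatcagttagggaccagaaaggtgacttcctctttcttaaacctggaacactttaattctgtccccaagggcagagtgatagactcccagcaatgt

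A search of both strands, in windows reaching 50 bases after the start, used 4 motifs that do not contain one another: TTCNNNGAA, the core palindrome bound by STAT5, TGTTCT, the steroid receptor half-site, CAAAGTCCA, an HNF4A-type site, and TATAAA. Windows were held for 9 of the 10 genes, 11 in all, and there was none for Hsd17b2. The Hsd3b5 and Hsd17b6 windows held none of the 4 letter strings. The Hsd3b2 window held AGAACA, the reverse complement of TGTTCT, starting 246 bases before the annotated start, and TGTTCT was found in 19.0% of 32851 windows of this length. Both Hsd3b3 windows held TGGACTTTG, the reverse complement of CAAAGTCCA, starting at base 5 or 4 after the start, and that motif was found in 0.475% of windows. TTCNNNGAA, in 8.3% of windows, occurred once, at 21 bases before the start of Hsd3b7, and TATAAA, in 13.6%, once, at 164 bases before the start of Akr1c6. Aligned end to end with gaps allowed, the windows of Hsd3b5 and Hsd3b3 shared identical bases at 63.3% of 300. Those of Hsd3b5 and Hsd3b2 shared 51.3%, and those of Hsd3b2 and Hsd3b3 44.3%. By the same measure Hsd11b1 and Hsd3b5, on different chromosomes, shared 49.0%. A match is a string of letters and was not tested as a binding site.

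Levels were compared between genes per kilobase of exon, with exon lengths from GENCODE M21. In WT control livers Akr1c6 was highest at 439 ± 182 CPM per kb (SD, n = 6), followed by Hsd3b5 at 170 ± 54.4, Hsd11b1 at 117 ± 15.7 CPM per kb, with Hsd17b2 just below it. Akr1d1 (50.8 ± 16.8 CPM per kb) and Hsd17b6 (43.5 ± 17.4) came next, then Srd5a1 (29.8 ± 7.94), Hsd3b3 (27.8 ± 6.64) and Hsd3b2 (24.9 ± 12.3), and Hsd3b7 was at 0.441 ± 0.333 CPM per kb. Within each of the sets Hsd11b1 and Hsd17b2, Akr1d1 and Hsd17b6, and Srd5a1, Hsd3b3 and Hsd3b2, the means differed by less than the spread between samples. On CD-HFD the order in WT livers was different: Akr1c6 (324 ± 68.4 CPM per kb) was followed by Hsd17b6 (104 ± 28.8), and Hsd3b5 stood last but 1 at 1.71 ± 2.13 CPM per kb.

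On CD-HFD, 6 of the 10 genes changed in all 3 genotypes against control: Hsd3b5, Hsd17b2, Hsd11b1, Akr1d1 and Srd5a1 fell and Hsd17b6 rose. The share of all genes called in all 3 genotypes was not computed, so nothing is read from this count of 6. Hsd3b2 and Hsd3b3 fell in WT, and neither passed the test in either knockout. Akr1c6 and Hsd3b7 passed in none. In WT livers 8 of 10 genes were called, 1 higher and 7 lower, at an adjusted p under 0.05 by edgeR's quasi-likelihood test with Benjamini-Hochberg adjustment, which called 47.7% of all genes in that comparison. Ripk3KO livers gave 6 of 10, with 1 higher and 5 lower, beside 46.3% of all genes. MlklKO livers also gave 6 of 10, with 1 higher and 5 lower, beside 45.2% of all genes. The median log2 change of the 10 genes was -1.03, -0.63 and -0.54 in WT, Ripk3KO and MlklKO, and that of all genes tested was -0.07, -0.05 and -0.04. In 4 WT control libraries the clock ratio was above 0 (replicates 1, 3, 5 and 6), and a refit without them had only replicates 2 and 4 as WT controls. Those were the lowest WT controls for Hsd3b2 (63.3 and 44 CPM), Hsd17b2 (121 and 111 CPM) and Hsd17b6 (46.4 and 27.4 CPM). Whether clock phase accounts for the values without these libraries, here and below, was not tested. That refit gave 6 in WT, with log2 changes of -6.18 for Hsd3b5, -0.88 for Hsd11b1, -1.44 for Akr1d1 and -1.71 for Srd5a1 that still passed. On CD-LFD the same fit gave -1.85 for Hsd3b5, -1.15 for Akr1d1 and -1.19 for Srd5a1, which also passed. Leaving out WT control replicates 5 and 6, Ripk3KO control replicate 5 and MlklKO CD-HFD replicate 1 gave 9, 7 and 6 in the 3 genotypes on CD-HFD. Among all genes, calls then went from 7082 to 8212 in WT and from 6718 to 7160 in MlklKO. The counts of other gene lists were not recomputed without these libraries. Other refit counts of the 10 genes are mostly given without the share of all genes in the same refit, and nothing is read from them.

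**Figure D1:**
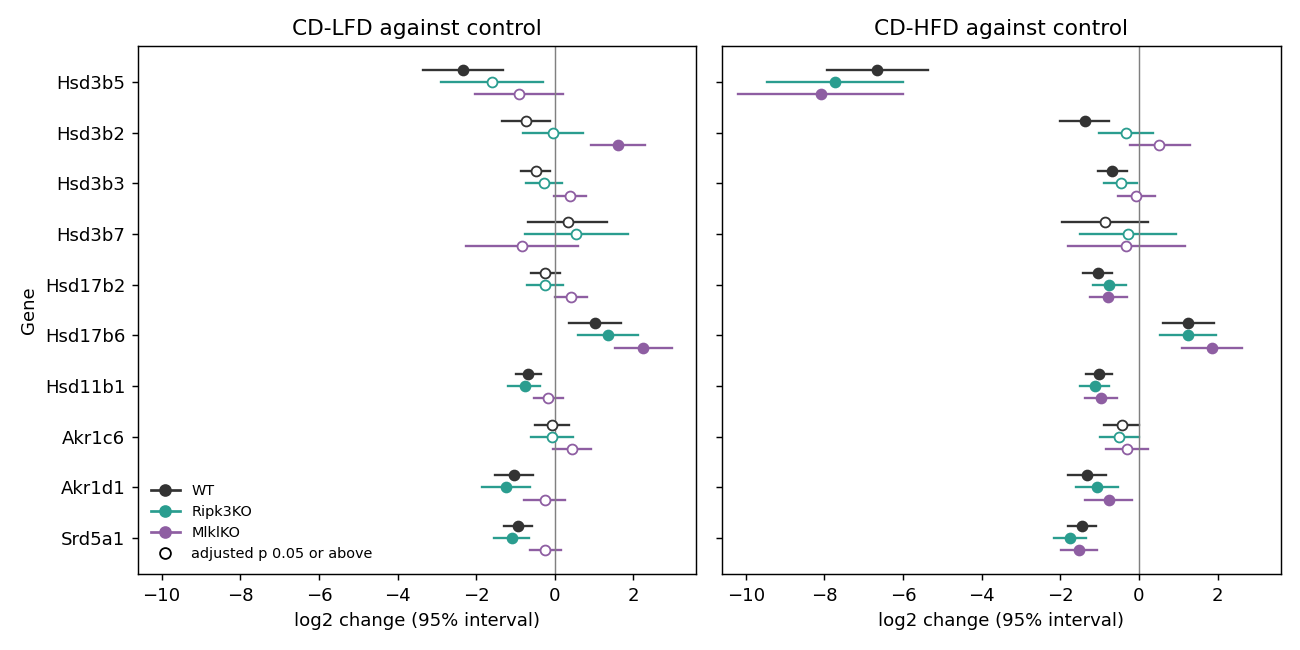
Log2 change of each gene on CD-LFD (left) and CD-HFD (right) against control in WT, Ripk3KO and MlklKO livers. Points are fitted changes, bars their 95% intervals, and open points had an adjusted p of 0.05 or above. Hsd3b7 rests on 0 to 3 counts in some livers. Hsd3b5 lies at -6.65, -7.72 and -8.09 on CD-HFD, and Hsd17b6 lies to the right of 0 in all 6 comparisons.

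Scaled by library size alone, without TMM, the median change of all genes on CD-HFD moved from -0.07 to 0.43 in WT, from -0.05 to 0.49 in Ripk3KO and from -0.04 to 0.49 in MlklKO. All changes here are therefore relative to the TMM scale. Hsd3b5, Hsd11b1 and Srd5a1 remained called lower and Hsd17b6 called higher in all 3 genotypes by library size. Hsd3b3 in WT (-0.20), Hsd17b2 in Ripk3KO (-0.22) and MlklKO (-0.25) and Akr1d1 in Ripk3KO (-0.54) and MlklKO (-0.25) then lost their call, and Hsd3b2 in MlklKO (1.03, adjusted p 0.0273) gained one.

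These are whole-liver samples, in which fewer hepatocytes and less RNA per hepatocyte cannot be told apart. The summed level of 4 hepatocyte genes was 84300 to 147000 CPM in WT control and 50600 to 86500 CPM in WT CD-HFD livers, 93400 to 141000 and 56800 to 81200 CPM in Ripk3KO, and 93300 to 105000 and 60000 to 82200 CPM in MlklKO. All 4 of these genes fell in WT, Alb by 0.86, Ttr by 0.86 and Serpina1c by 1.44 on the log2 scale. Over the same comparison in WT the summed level of 5 macrophage genes went from 144 to 178 CPM to 630 to 1670 CPM. Of these 5 genes Lyz2 (32.6 ± 7.17 to 723 ± 382 CPM), Cd68 and Adgre1 rose, Clec4f, a Kupffer cell gene, fell (79.4 ± 18.3 to 24.8 ± 16.4 CPM), and Cd5l was 41.2 ± 7.97 and 46.1 ± 18.1 CPM. The summed level of 5 stellate and fibroblast genes went from 175 to 213 CPM to 752 to 1370 CPM, and of 5 cholangiocyte genes from 44.6 to 83.1 CPM to 675 to 1120 CPM. No macrophage, stellate or cholangiocyte gene of these lists was at 0 throughout a group. The sum of 5 endothelial genes was 153 to 192 CPM on control and 67.8 to 111 CPM on CD-HFD, and of 5 T cell genes 0.733 to 3.42 and 13 to 28.3 CPM. The adrenal cortex also makes steroid enzymes, and 5 of its marker genes summed to 7.09 to 16.1 CPM on control and 2.34 to 4.61 CPM on CD-HFD, with 2 of the 5 at 0 in every library of each of these groups. The part of cell composition in the changes of the 10 genes was not tested.

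Hsd3b5, which in mice acts mainly as a 3-ketosteroid reductase and serves androgen inactivation, had the largest diet difference of the 10 genes. In WT control livers it was 403, 215, 299, 169, 288 and 211 CPM, on CD-LFD 59.9, 32.1, 136, 42.1, 18.1 and 21.6 CPM, and on CD-HFD 2.57, 0.122, 8.95, 0.757, 0.483 and 2.99 CPM. The 3 groups did not overlap. The fall on CD-HFD was 100-fold (log2 change -6.65, SE 0.66, adjusted p 5.76e-11), and without CD-HFD replicate 3 the log2 change was -7.60. On CD-LFD the log2 change was -2.34 (SE 0.521, adjusted p 0.000786), and all 6 CD-LFD livers were below all 6 control livers.

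Hsd3b5 fell on CD-HFD in both knockouts as well. Ripk3KO livers held 177, 145, 187, 181, 233 and 168 CPM on control and 4.16, 0.11, 0.175 and 0.0853 CPM on CD-HFD, a log2 change of -7.72 (SE 0.883, adjusted p 2.09e-09). The first of these CD-HFD livers stood apart with 25 counts, and the other 3 held 1 to 2 counts each, so that without it Hsd3b5 was at least 553-fold lower than on control, taking 3 counts per library as the floor. MlklKO livers held 66.1, 84.9, 257, 172, 51.1 and 264 CPM on control and 1.04, 0.13 and 0.533 CPM on CD-HFD (log2 change -8.09, SE 1.07, adjusted p 5.55e-08, and -8.78 without CD-HFD replicate 1). In each knockout every CD-HFD liver was below every control and CD-LFD liver. The interaction terms, which test whether the CD-HFD change differed from that in WT, were -1.07 (SE 1.02, adjusted p 0.782) for Ripk3KO and -1.44 (SE 1.28, adjusted p 0.597) for MlklKO by edgeR, with 95% intervals of -3.07 to 0.93 and -3.95 to 1.06.

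On CD-LFD Hsd3b5 passed the test in neither knockout in the fit on all libraries. Ripk3KO livers held 48.9, 91.9 and 40 CPM, below all 6 of their controls, with a log2 change of -1.60 that missed the threshold (SE 0.66, adjusted p 0.0703) and passed in a fit on the compared groups alone (-1.57, adjusted p 0.00176) and with a replicate block (-1.75, adjusted p 0.0359). MlklKO livers held 102, 67.8, 123 and 27.8 CPM, overlapping their controls, with a log2 change of -0.90 (SE 0.571, adjusted p 0.21). The interactions with WT on CD-LFD did not pass, at 0.74 (95% interval -0.80 to 2.28) for Ripk3KO and 1.44 (-0.01 to 2.90) for MlklKO. From CD-LFD to CD-HFD the gene fell in both, with a log2 change of -6.12 in Ripk3KO (SE 0.886, adjusted p 1.15e-05) and of -7.20 in MlklKO (SE 1.07, adjusted p 4.67e-06). Without CD-HFD replicate 1 the MlklKO change was -7.87, while the 3 remaining Ripk3KO livers were at the floor and give no exact value. These knockout comparisons share no library with the WT comparison in which Hsd3b5 was first seen.

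**Figure D2:**
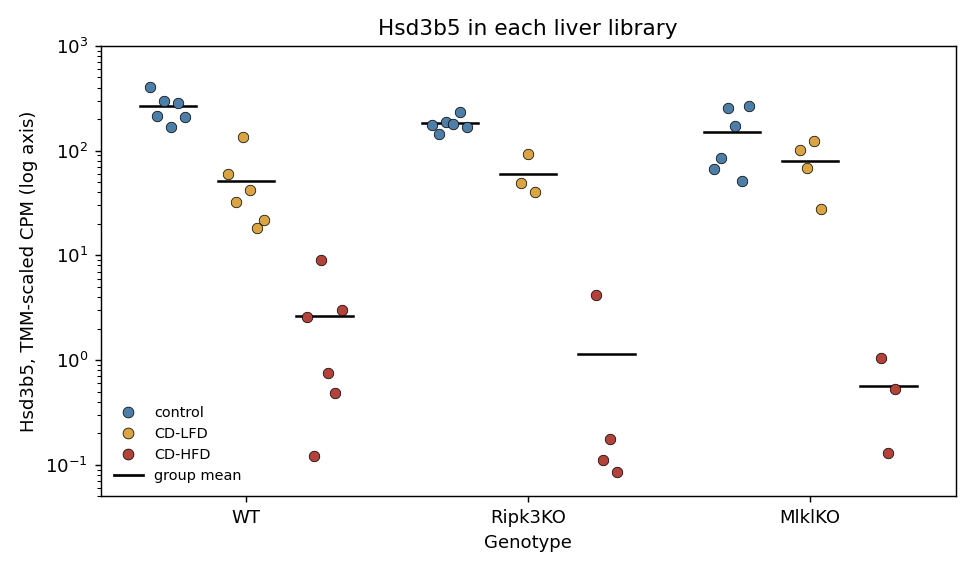
Hsd3b5 in each of the 44 livers by genotype and diet, in TMM-scaled CPM on a log axis. Points are samples and lines are group means. All 13 CD-HFD livers lie at or below 8.95 CPM and all 31 other livers at or above 18.1 CPM.

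The genes whose log2 CPM correlated best with it over the 44 libraries were Mup7, a major urinary protein (r = 0.96), Slc22a28, an organic anion transporter family gene (r = 0.95), and Mup14 (r = 0.95), where all points share the same diets and libraries and Mup genes share near-identical sequence. Mup7 was 1360 ± 581 CPM in WT control, 85.8 ± 92 CPM on CD-LFD and 5.16 ± 5.67 CPM on CD-HFD (SD, n = 6 each). Of 15 male-biased liver genes listed apart from the 10, all 15 fell on CD-HFD in WT, 14 in Ripk3KO and 15 in MlklKO, where 47.7%, 46.3% and 45.2% of all genes were called in either direction. Their median log2 changes were -2.83, -2.44 and -3.02. Mup7 (-8.04), Elovl3, a fatty acid elongase (-5.82), and Moxd1 (-5.81) led in WT. On CD-LFD 10, 7 and 6 of the 15 fell and 0, 1 and 2 rose, beside 27.7%, 24.1% and 37.9% of all genes called. Of 9 tested female-biased genes in WT on CD-HFD, 4 rose and 3 fell (median log2 change 0.30), with 4 and 2 in Ripk3KO (1.61) and 5 and 1 in MlklKO (2.16), which is 77.8%, 66.7% and 66.7% called. In WT the cytochromes P450 Cyp2b9 (0.324 ± 0.458 to 12.8 ± 8.51 CPM) and Cyp2a4 (1.55 ± 1.05 to 42.6 ± 24.3 CPM) rose, and Cyp17a1 (log2 change -0.96) and A1bg (-3.25) fell. Of 13 growth hormone signalling genes 6 fell and 0 rose in WT on CD-HFD, which is 46.2% called and close to the 47.7% of all genes. Among them was Ghr, the growth hormone receptor, which went from 520 ± 117 to 198 ± 42.1 CPM (log2 change -1.39, SE 0.179), with Bcl6 (-1.23) and Igf1 (-0.74). The same list gave 5 lower and 1 higher in Ripk3KO (46.2% called, beside 46.3% of all genes) and 4 lower and 1 higher in MlklKO (38.5%, beside 45.2%).

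Hsd3b2, a 3-beta-hydroxysteroid dehydrogenase/isomerase next to Hsd3b5, was lower in MlklKO than in WT control livers. It was 81.6, 63.3, 86.3, 44, 102 and 175 CPM in WT control livers and 9.26, 8.25, 16.6, 18.4, 7.04 and 49.8 CPM in MlklKO control livers. Of the MlklKO livers, 5 of 6 were below every WT liver, and replicate 6 lay inside the WT range. The difference was 5-fold (log2 change -2.32, SE 0.333, adjusted p 2.41e-06 by edgeR), -2.93 without MlklKO control replicate 6, and -1.52 (adjusted p 0.012) without the 4 WT control libraries with a clock ratio above 0. Ripk3KO control livers held 63, 56.8, 34.9, 24.4, 46.9 and 48.8 CPM, with a log2 change of -1.01 from WT that missed the threshold (SE 0.318, adjusted p 0.0566). It passed on leaving out WT control replicate 2 or 4 or Ripk3KO control replicate 1 (adjusted p 0.0354, 0.0243 and 0.0359) and by DESeq2 (-1.05, adjusted p 0.0251), library size, RLE factors or no count filter, and was -0.24 without the 4 WT control libraries.

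Hsd3b2 fell on CD-HFD in WT livers and rose on CD-LFD in MlklKO livers. In WT it was 43.4, 28.9, 24.9, 48.8, 44.6 and 22.8 CPM on CD-HFD (log2 change -1.37, SE 0.318, adjusted p 0.00044), with 2 CD-HFD livers above the lowest control liver. Without the 4 WT control libraries with a clock ratio above 0 this change was -0.56 and no longer passed (adjusted p 0.272). In MlklKO it rose on CD-LFD to 46.9, 33.1, 51.6 and 91 CPM (log2 change 1.60, SE 0.352, adjusted p 0.000555, and 2.21 without control replicate 6). On CD-HFD the MlklKO values were 33.4, 24 and 22 CPM, with a log2 change of 0.52 that missed the threshold (SE 0.391, adjusted p 0.283) and reached 1.13 (adjusted p 0.00532) without control replicate 6.

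The test of the difference itself gave an interaction of MlklKO with CD-LFD of 2.32 for Hsd3b2 (SE 0.473, adjusted p 0.00171) and of MlklKO with CD-HFD of 1.89 (SE 0.499, adjusted p 0.0233), both by edgeR. The first was 1.51 (adjusted p 0.0549) and the second 1.05 (adjusted p 0.29) without the 4 WT control libraries with a clock ratio above 0. The second was 1.25 (adjusted p 0.185) without WT control replicates 5 and 6, Ripk3KO control replicate 5 and MlklKO CD-HFD replicate 1. In a fit on the compared groups alone it was 1.85 (adjusted p 0.113). Without MlklKO control replicate 6 they were 2.93 and 2.51, and the second did not pass when any 1 of the 3 MlklKO CD-HFD livers was left out (adjusted p 0.0542 to 0.08). On CD-LFD itself the MlklKO and WT livers were level (55.7 ± 24.8 against 55.6 ± 7.1 CPM, n = 4 and 6, log2 change 0.00, 95% interval -0.68 to 0.68), while on control they differed as above.

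Hsd3b3 is a close relative in the same cluster, and its group means spanned 1.86-fold, beside 5.05-fold for Hsd3b2. In WT control livers it was 221, 170, 197, 107, 157 and 215 CPM and on CD-HFD 113, 108, 122, 115, 130 and 80 CPM, with 5 of 6 control livers above all CD-HFD livers (log2 change -0.68, SE 0.193, adjusted p 0.00369). The change was -0.29 (adjusted p 0.376) without the 4 WT control libraries with a clock ratio above 0, and -0.49 (adjusted p 0.076) with the clock ratio as a covariate. MlklKO control livers held 64.2, 80.1, 107, 99, 67.2 and 184 CPM, again with replicate 6 highest. They were lower than WT, at -0.83 on the log2 scale (SE 0.194, adjusted p 0.00151), and -0.45 (adjusted p 0.281) without the same 4 WT libraries. Its interaction of MlklKO with CD-LFD was 0.87 (SE 0.288, adjusted p 0.0493) and lost its call when any of 19 of the 22 libraries compared was left out, and by library size, without the count filter, with the replicate block and on the compared groups alone (adjusted p 0.0552 to 0.132). It was 0.48 (adjusted p 0.386) without the 4 WT control libraries with a clock ratio above 0, and 0.82 (adjusted p 0.0667) without WT control replicates 5 and 6, Ripk3KO control replicate 5 and MlklKO CD-HFD replicate 1. Its change on CD-LFD in MlklKO, 0.39 (adjusted p 0.149), passed without control replicate 6 (0.65, adjusted p 0.00773).

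**Figure D3:**
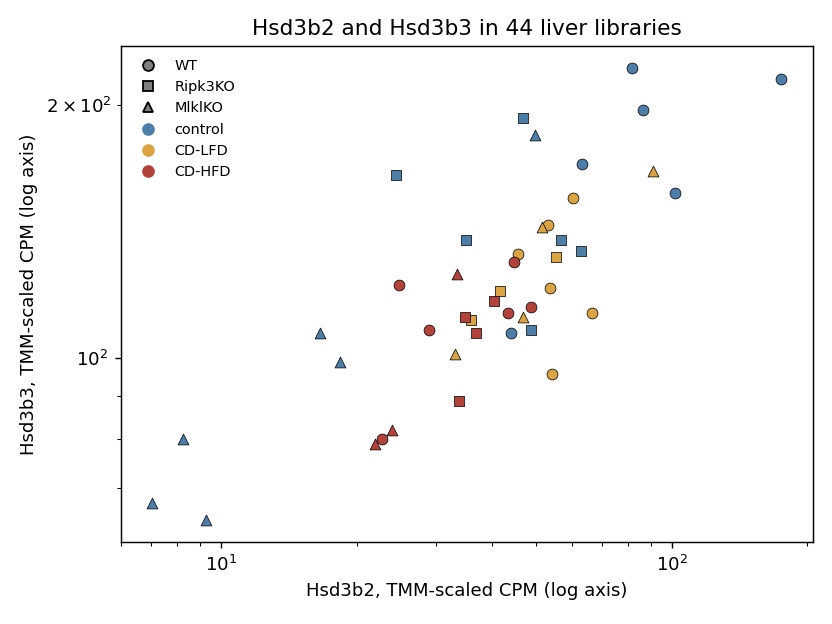
Hsd3b2 against Hsd3b3 in each of the 44 livers, both in TMM-scaled CPM on log axes. Symbols give genotype and colours diet. In the plot 5 of the 6 MlklKO control livers lie at the lower left, with Hsd3b2 at 18.4 CPM or less, and the sixth lies at 49.8 CPM.

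Over the 44 libraries the log2 CPM of Hsd3b2 and Hsd3b3 correlated with r = 0.78, and with r = 0.69 after group means were removed, and that of Hsd3b2 and Hsd3b5 with r = 0.22 and 0.12. These values are across libraries that share diets and depth. Of the 50-base stretches of their GENCODE M21 transcripts, 25.1% of those of Hsd3b2 occur also in other genes, 11% in Hsd3b3 and 6.41% in Hsd3b6, and 21.2% of those of Hsd3b5 do, 18.2% in Gm10681. Reads from such stretches cannot be assigned to 1 gene, so the split of counts within the cluster is uncertain to that extent. Hsd3b6 and Hsd3b1, the further cluster genes in the table, were too low to be tested, at most 0.11 and 0.503 CPM in any liver.

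Hsd3b7, the 3-beta-hydroxysteroid dehydrogenase of bile acid synthesis, gave 300 counts over all 44 libraries, 0 to 82 per library, and a mean of 0.801 CPM. Group means ran from 0.312 ± 0.177 CPM (MlklKO CD-LFD, n = 4) to 1.47 ± 0.862 CPM (WT CD-LFD, n = 6), and no comparison passed the test by edgeR on the TMM scale. MlklKO against WT on CD-LFD passed by DESeq2 (adjusted p 0.0303) and by library size (adjusted p 0.023), where the MlklKO livers held 1 to 3 counts each, at the floor. In GENCODE M21 62.0% of its exon bases lie within Gm49388 on the same strand, and Gm49388 had 1 count over the 44 libraries. A further gene, 9430064I24Rik, covers 62.4% of its exon bases on the opposite strand. The effect of this overlap on its count was not tested, so the low level says little about the gene itself.

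**Figure D4:**
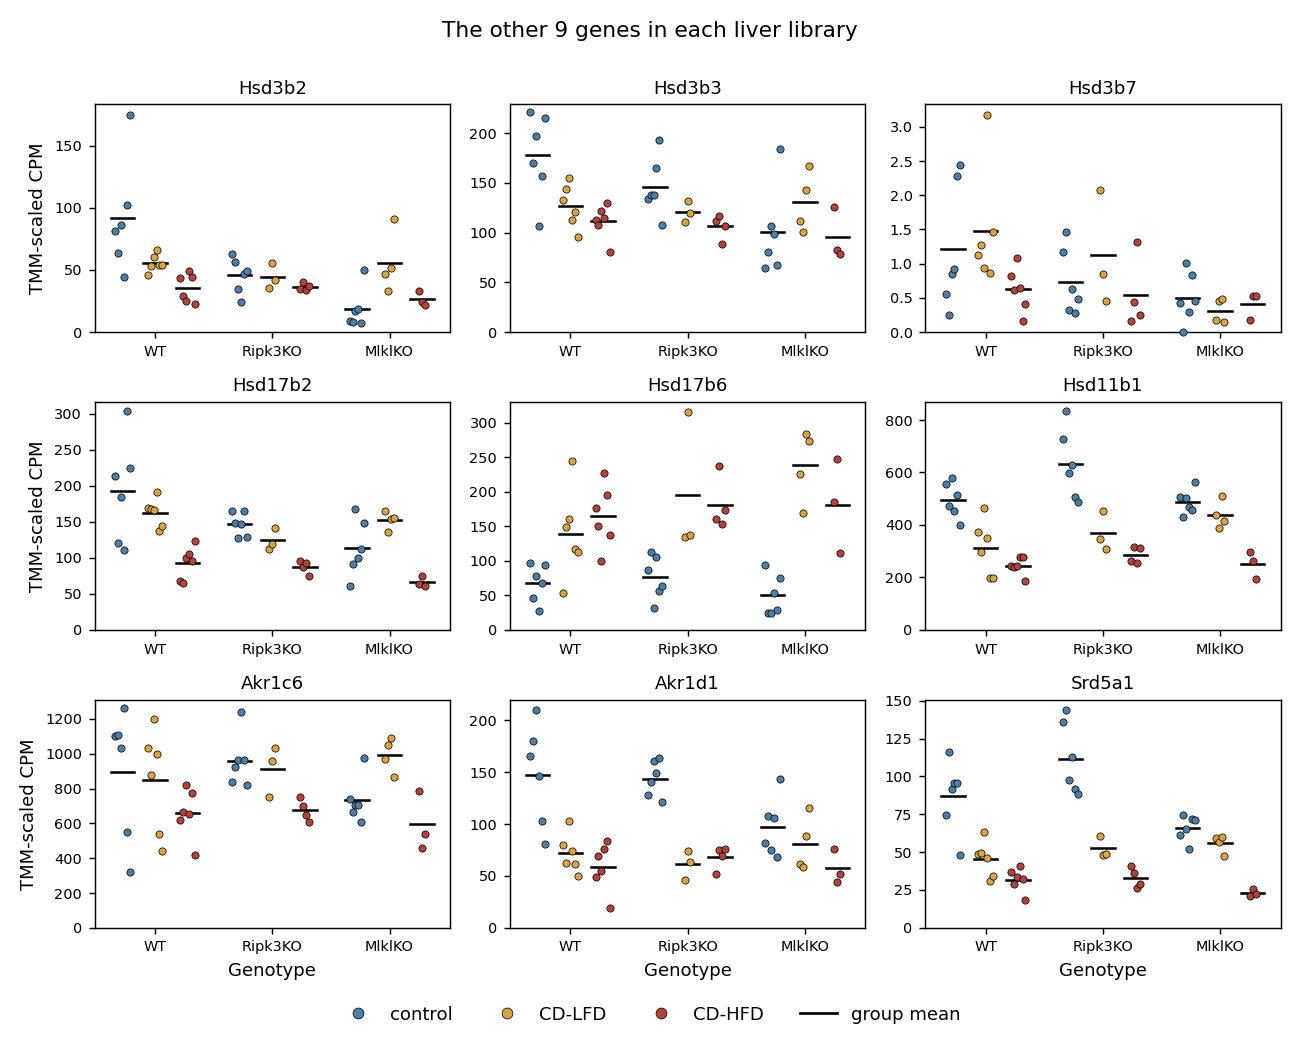
The other 9 genes in each liver, in TMM-scaled CPM on linear axes that start at 0, by genotype and diet. Points are samples and lines are group means. Srd5a1 and Hsd11b1 on CD-HFD lie below control in every genotype, and Hsd17b6 lies above.

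Hsd17b6 rose on both diets in WT livers. It encodes a 17-beta-hydroxysteroid dehydrogenase of the retinol dehydrogenase type, which oxidises androgen metabolites. In WT livers it was 96.9, 46.4, 78.3, 27.4, 67.6 and 94.6 CPM on control, 52.9, 149, 160, 244, 117 and 113 CPM on CD-LFD, and 177, 151, 99.3, 227, 196 and 137 CPM on CD-HFD. Control and CD-HFD livers did not overlap, and 1 CD-LFD liver lay within the control range. The log2 change was 1.26 on CD-HFD (SE 0.338, adjusted p 0.00208) and 1.02 on CD-LFD (SE 0.337, adjusted p 0.0209), the second lost on leaving out WT control replicate 2 or 4 or CD-LFD replicate 4 (adjusted p 0.0547, 0.0634 and 0.0809) and in a fit on the compared groups alone (1.05, adjusted p 0.0512). Without the 4 WT control libraries with a clock ratio above 0 they were 2.18 and 1.94.

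Hsd17b6 rose in both knockouts on both diets. Ripk3KO livers held 87.1, 113, 31.6, 105, 56.7 and 64 CPM on control, 134, 315 and 137 CPM on CD-LFD and 161, 237, 154 and 174 CPM on CD-HFD, with no overlap of either diet with control. The log2 changes were 1.35 (SE 0.392, adjusted p 0.0106) on CD-LFD, lost without CD-LFD replicate 2 (0.85, adjusted p 0.158), and 1.25 (SE 0.365, adjusted p 0.00465) on CD-HFD. MlklKO livers held 94.4, 25.2, 24, 53, 28.8 and 75.9 CPM on control, 226, 170, 283 and 274 CPM on CD-LFD and 185, 248 and 111 CPM on CD-HFD, again without overlap. Here the log2 changes were 2.25 (SE 0.37, adjusted p 1.2e-05) and 1.86 (SE 0.391, adjusted p 0.000149). No interaction passed the test for Hsd17b6, the largest being 1.23 for MlklKO with CD-LFD (95% interval 0.26 to 2.20, adjusted p 0.113), which was 0.30 without the 4 WT control libraries with a clock ratio above 0. Igfbp2, an IGF-binding protein, tracked it best over the 44 libraries (r = 0.81). Of its 50-base stretches 12.1% occur also in other genes.

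Hsd17b2 encodes an inactivating enzyme, oxidising oestradiol and testosterone to weaker hormones. In WT livers it was 214, 121, 185, 111, 304 and 225 CPM on control and 68.3, 65.4, 100, 106, 95.1 and 124 CPM on CD-HFD, and the groups overlapped through the highest CD-HFD liver. The log2 change was -1.05 (SE 0.191, adjusted p 1.53e-05), but -0.29 (adjusted p 0.303) without the 4 WT control libraries with a clock ratio above 0. In the knockouts, whose control livers spanned clock ratios of -7.04 to -5.52 and -4.87 to -3.6, the log2 change was -0.75 (SE 0.216, adjusted p 0.00395) in Ripk3KO and -0.78 (SE 0.24, adjusted p 0.0075) in MlklKO. Their CD-HFD livers spanned -6.07 to -5.42 and -5.93 to -5.09, the latter not overlapping the MlklKO controls. The MlklKO change did not pass by library size, as above, or in a fit on the compared groups alone (-0.67, adjusted p 0.0586), and passed with the clock covariate (-0.64, adjusted p 0.011). Of the 10 genes Hsd17b2 followed the clock ratio most closely, with r = 0.52 over the 44 libraries and 0.55 after group means were removed. It did not pass on CD-LFD in any genotype (log2 changes -0.24, -0.24 and 0.42), although the MlklKO change passed with the clock covariate (0.64, adjusted p 0.00854), by library size (0.56) and with the replicate block (0.51). In MlklKO it fell from CD-LFD to CD-HFD by 1.20 (SE 0.258, adjusted p 0.000652), from 136 to 165 CPM to 60.5 to 74.6 CPM.

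Hsd11b1, which regenerates active glucocorticoid from its inert keto form and is abundant in hepatocytes, fell in all 3 genotypes on CD-HFD. In WT livers it was 557, 472, 578, 453, 515 and 401 CPM on control and 245, 239, 245, 279, 278 and 187 CPM on CD-HFD. Ripk3KO livers went from 488 to 835 CPM (median 613) to 264, 316, 255 and 314 CPM, and MlklKO livers from 431 to 562 CPM (median 486) to 298, 261 and 193 CPM. No CD-HFD liver reached its control range. The log2 changes were -1.01 (SE 0.164, adjusted p 2.2e-06), -1.13 (SE 0.188, adjusted p 4.05e-06) and -0.96 (SE 0.208, adjusted p 0.000206), and the interactions were -0.12 (95% interval -0.60 to 0.36) and 0.05 (-0.45 to 0.56). WT CD-LFD replicates 5 and 6 held 198 and 197 CPM, against 296 to 463 CPM in the other WT CD-LFD livers. On CD-LFD Hsd11b1 fell by 0.67 in WT (adjusted p 0.0021, and 0.0538 without the 4 WT control libraries with a clock ratio above 0) and by 0.77 in Ripk3KO (adjusted p 0.00543, and 0.0662 without CD-LFD replicate 3). In MlklKO it was -0.16 (adjusted p 0.502) on CD-LFD and fell from there to CD-HFD by 0.80 (adjusted p 0.00635), which did not pass without CD-HFD replicate 4 (-0.66, adjusted p 0.0639) or by library size (-0.42, adjusted p 0.0636).

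Srd5a1, the 5-alpha reductase that converts testosterone to dihydrotestosterone and reduces other 3-ketosteroids, fell on CD-HFD in all 3 genotypes as well. In WT it was 74.7, 116, 91.9, 95.6, 95.4 and 47.9 CPM on control, 49, 49.3, 63.4, 45.9, 30.8 and 34.1 CPM on CD-LFD and 36.8, 29, 33.3, 41, 32 and 18.5 CPM on CD-HFD. In Ripk3KO the range was 88.3 to 144 CPM on control and 26.1 to 40.8 CPM on CD-HFD, and in MlklKO 52.2 to 74.3 CPM and 20.7 to 25.7 CPM, with no overlap in any genotype. The log2 changes on CD-HFD were -1.45 (SE 0.181, adjusted p 1.25e-08), -1.76 (SE 0.21, adjusted p 5.38e-09) and -1.52 (SE 0.235, adjusted p 1.09e-06). On CD-LFD Srd5a1 fell in WT by 0.93 (adjusted p 0.000129) and in Ripk3KO by 1.09 (adjusted p 0.000462), and in MlklKO it was -0.24 (adjusted p 0.351). The difference between MlklKO and WT in that response, 0.69 (95% interval 0.18 to 1.21), missed the threshold (adjusted p 0.0909). Over the 44 libraries the log2 CPM of Srd5a1 and Hsd11b1 correlated with r = 0.90, and with r = 0.62 after group means were removed.

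Akr1d1, the 5-beta reductase needed for bile acid synthesis and for clearing 3-ketosteroids, was 166, 180, 210, 146, 103 and 80.6 CPM in WT control livers and 49.3, 68.9, 54.9, 76.5, 83.9 and 19.4 CPM on CD-HFD. The groups overlapped only through the highest CD-HFD and the lowest control liver. The log2 change was -1.33 (SE 0.244, adjusted p 1.83e-05) in WT, -1.07 (SE 0.277, adjusted p 0.00151) in Ripk3KO and -0.77 (SE 0.305, adjusted p 0.0374) in MlklKO. The MlklKO call was lost when control replicate 2, 4 or 6 or CD-HFD replicate 2 or 4 was left out (adjusted p 0.0554 to 0.137). On CD-LFD Akr1d1 fell by 1.03 in WT (adjusted p 0.00135) and by 1.23 in Ripk3KO (adjusted p 0.00357), and in MlklKO it was -0.26 (adjusted p 0.458).

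Akr1c6, an oestradiol 17-beta-dehydrogenase of the aldo-keto reductase family, was the most abundant of the 10 genes per kilobase and passed in no comparison by edgeR in the fit on all libraries. In WT control livers it was 1100, 1110, 1030, 1260, 550 and 318 CPM, with replicates 5 and 6 far below the other 4. WT CD-LFD replicates 5 and 6 were low as well, at most 540 CPM, against 880 to 1200 CPM in the other WT CD-LFD livers. On CD-HFD Akr1c6 was 620, 667, 819, 652, 772 and 420 CPM in WT. The log2 change was -0.44 (SE 0.225, adjusted p 0.106) and 0.07 by library size. It passed with the clock covariate (-0.60, adjusted p 0.0462), without WT control replicate 5 (-0.55, adjusted p 0.0453), without replicate 6 (-0.61, adjusted p 0.00954) and, at -0.82 (adjusted p 0.00528), without the 4 WT control libraries with a clock ratio above 0. It also passed in WT (-0.76, adjusted p 0.000886) and in Ripk3KO (-0.48, adjusted p 0.0433) when WT control replicates 5 and 6, Ripk3KO control replicate 5 and MlklKO CD-HFD replicate 1 were left out. In the fit on all libraries it was in Ripk3KO -0.50 (SE 0.255, adjusted p 0.104; 0.024 on the compared groups alone and 0.0461 with the replicate block) and in MlklKO -0.30 (adjusted p 0.391).

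Over the 44 libraries Hsd11b1 tracked Il1rap (r = 0.96), Serpinc1, which encodes antithrombin (r = 0.95), and Slc10a1, the bile acid uptake transporter (r = 0.94). Srd5a1 tracked Ephx2, the soluble epoxide hydrolase, Aadac and Glo1 (r = 0.93 each), and Akr1d1 tracked Slc2a9, Stard7 and Ndrg2 (r = 0.91 each). Akr1c6 tracked its genomic neighbour Akr1c20 (r = 0.91). Hsd17b2 tracked Nit2 (r = 0.88) and Galt (r = 0.87), Hsd3b2 tracked Apol7a (r = 0.89), and Hsd3b3 tracked Sdr42e1 (r = 0.77). Mblac2 was among the 3 closest genes of both Hsd3b2 (r = 0.87) and Hsd3b3 (r = 0.72). These r values are Pearson's on log2 CPM, over libraries that share diets and depth.

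On CD-LFD against control 5 of the 10 genes passed in WT, 4 in Ripk3KO and 2 in MlklKO, beside 27.7%, 24.1% and 37.9% of all genes. Hsd17b6 rose in each genotype. In WT the 4 that fell were Hsd3b5, Hsd11b1, Akr1d1 and Srd5a1, and in Ripk3KO the 3 were Hsd11b1, Akr1d1 and Srd5a1. In MlklKO the other gene called was Hsd3b2, which rose. The median change of the 10 genes was -0.58, -0.26 and 0.11. From CD-LFD to CD-HFD Hsd3b5 fell in Ripk3KO, where 1 of 10 was called against 8.83% of all genes, and Hsd3b5, Hsd17b2, Hsd11b1 and Srd5a1 (-1.29, SE 0.245, adjusted p 0.000153) fell in MlklKO, 4 of 10 against 23.7% (6 of 10 without the 4 libraries left out together above). The same comparison in WT was known when the list was chosen and is described only by its levels: Hsd3b5 was 51.6 ± 43.9 CPM on CD-LFD and 2.65 ± 3.3 CPM on CD-HFD, Hsd17b2 163 ± 19.5 and 93.1 ± 22.5 CPM, and Srd5a1 45.4 ± 11.8 and 31.8 ± 7.72 CPM (SD, n = 6 each). The share of all genes called there was 21.1%, and calls of the 10 genes are not given for it.

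Between genotypes on the same diet few of the 10 genes differed. On control 3 of 10 were lower in MlklKO than in WT, Hsd3b2, Hsd3b3 and Hsd17b2, where 27.1% of all genes were called. Hsd17b2 was 61.2, 91.4, 168, 99.5, 113 and 148 CPM in MlklKO control livers (log2 change -0.76, SE 0.19, adjusted p 0.00263), and the difference was -0.01 (adjusted p 0.993) without the 4 WT control libraries with a clock ratio above 0. With the clock ratio as a covariate Hsd3b2 (-2.21, adjusted p 6.06e-05) and Hsd3b3 (-0.67, adjusted p 0.0206) were called and Hsd17b2 was not (-0.39, adjusted p 0.127). Hsd17b2 also missed the threshold in a fit on the compared groups alone (-0.81, adjusted p 0.0605). Akr1d1 (-0.60, adjusted p 0.0566) and Srd5a1 (-0.40, adjusted p 0.0904) missed it in the fit on all libraries, and Akr1d1 passed with the clock covariate (-0.73, adjusted p 0.0456) and by DESeq2 (-0.62, adjusted p 0.0322). Leaving out 4 libraries (WT control replicates 5 and 6, Ripk3KO control replicate 5 and MlklKO CD-HFD replicate 1) gave 5 of 10. Hsd17b2 was then no longer called (-0.47, adjusted p 0.0935), while Akr1c6 (-0.60, adjusted p 0.022), Akr1d1 (-0.84, adjusted p 0.013) and Srd5a1 (-0.50, adjusted p 0.0443) were.

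Between Ripk3KO and WT edgeR called 0 of 10 genes on control, CD-LFD and CD-HFD, against 4.47%, 1.1% and 0.377% of all genes. At an unadjusted p under 0.05 there were 4, 0 and 0, and DESeq2 called 1, 0 and 0. Between MlklKO and WT edgeR called 0 of 10 on CD-LFD (3 unadjusted, 1 by DESeq2, against 2.56% of all genes) and 0 on CD-HFD (2 unadjusted, 0 by DESeq2), where it called 0% of all genes, 1246 at an unadjusted p under 0.05 and 2 by DESeq2. Hsd3b5 on CD-HFD was 2.65 ± 3.3 CPM in WT, 1.13 ± 2.02 CPM in Ripk3KO and 0.569 ± 0.458 CPM in MlklKO, and on control 264 ± 84.3, 182 ± 29.2 and 149 ± 95.9 CPM. The log2 differences from WT were -1.61 and -2.27 on CD-HFD and -0.54 and -0.82 on control, with adjusted p of 0.22 to 0.633. Their 95% intervals reached from -4.5 to 0.43, and single libraries moved the CD-HFD values widely: to -2.94 without MlklKO CD-HFD replicate 1, and to -0.66 and -1.32 without WT CD-HFD replicate 3. Without Ripk3KO CD-HFD replicate 1 the remaining Ripk3KO livers were at the floor.

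The interactions with diet called 0 of 10 genes for Ripk3KO on CD-HFD (1 unadjusted, 0 by DESeq2) and 0 on CD-LFD (0 and 0), against 0.478% and 0.0269% of all genes. For MlklKO they called 1 on CD-HFD (Hsd3b2; 1 unadjusted, 1 by DESeq2) and 2 on CD-LFD (Hsd3b2 and Hsd3b3; 7 unadjusted, 2 by DESeq2), against 4.12% and 8.45%. Without WT control replicates 5 and 6, Ripk3KO control replicate 5 and MlklKO CD-HFD replicate 1 they called 0 and 3, the 3 being Hsd3b2 (1.88, adjusted p 0.00911), Akr1c6 (0.81, adjusted p 0.0424) and Srd5a1 (0.79, adjusted p 0.0396).

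Of 18 further hydroxysteroid dehydrogenases and reductases tested, 3 rose and 9 fell in WT, and the same numbers rose and fell in Ripk3KO and in MlklKO, which is 66.7% called in each, beside 47.7%, 46.3% and 45.2% of all genes. The list held 26 genes, of which Hsd3b4 and Hsd17b8 were not matched by symbol and 6 were too low to be tested. In WT the falls were led by Akr1c19 (93.7 ± 71.8 to 30.4 ± 7.99 CPM, log2 change -1.62), Akr1c14, a 3-alpha-hydroxysteroid dehydrogenase (323 ± 118 to 118 ± 39.3 CPM, -1.45), and Hsd17b7, an enzyme of cholesterol synthesis (68.8 ± 30.6 to 29 ± 9.03 CPM, -1.26). Srd5a3, which acts in dolichol synthesis, rose from 9.79 ± 3.56 to 16.3 ± 1.92 CPM, Hsd17b13, a lipid droplet protein, from 315 ± 93.6 to 468 ± 127 CPM, and Akr1c18, a 20-alpha-hydroxysteroid dehydrogenase, from at most 3 counts per liver to 1.29 ± 0.373 CPM. H6pd, which supplies the cofactor for HSD11B1, fell in Ripk3KO by 0.94 (SE 0.208, adjusted p 0.000278) and in MlklKO by 1.39 (SE 0.237, adjusted p 6.12e-06), and in WT its change of -0.41 missed the threshold (adjusted p 0.0572). Its control levels were 378 ± 124 CPM in WT, 712 ± 160 CPM in Ripk3KO and 967 ± 219 CPM in MlklKO, and its CD-HFD levels 284 ± 29.7, 372 ± 44 and 369 ± 40.9 CPM.

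Of 13 tested genes of steroid synthesis, sulfation and glucuronidation, 1 rose and 9 fell in WT on CD-HFD, 1 and 7 in Ripk3KO and 1 and 7 in MlklKO. These are 76.9%, 61.5% and 61.5% called, beside 47.7%, 46.3% and 45.2% of all genes. The gene that rose in WT was Sult1e1, the oestrogen sulfotransferase, which went from at most 3 counts per control liver to 37 ± 13 CPM, at least 27-fold higher, and was 144 ± 72.1 CPM on CD-LFD. Sult2a8, a bile acid sulfotransferase, fell from 740 ± 132 to 115 ± 37.1 CPM (log2 change -2.69, SE 0.214), and Ugt2b38 from 13 ± 6.02 to 1.7 ± 1.05 CPM. All of 14 bile acid synthesis genes were tested and 12 fell in WT, 10 in Ripk3KO and 8 in MlklKO, with 0, 0 and 1 higher (85.7%, 71.4% and 64.3% called, beside the same shares of all genes). Cyp7b1, the oxysterol 7-alpha-hydroxylase, went from 270 ± 102 to 38.1 ± 10.3 CPM in WT (log2 change -2.83, SE 0.307), Cyp8b1, the sterol 12-alpha-hydroxylase, from 341 ± 155 to 89.6 ± 20.4 CPM (-1.93), and Slc27a5, a bile acyl-CoA synthetase, from 1000 ± 385 to 285 ± 61.6 CPM (-1.82).

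Of 7 steroid and bile acid receptors tested, 2 fell in WT on CD-HFD, Nr3c1, the glucocorticoid receptor (86.7 ± 15.4 to 58.6 ± 10.6 CPM, log2 change -0.57), and Nr1h4, the bile acid receptor (192 ± 53.7 to 114 ± 26.6 CPM, -0.75), with 3 lower in Ripk3KO and 1 in MlklKO. These are 28.6%, 42.9% and 14.3% called, below the 47.7%, 46.3% and 45.2% of all genes, and on CD-LFD in MlklKO 5 of 7 (71.4%) were called, 2 higher and 3 lower, beside 37.9%. Of 12 glucocorticoid-responsive genes 4 rose and 3 fell in WT, 1 and 4 in Ripk3KO and 1 and 3 in MlklKO, or 58.3%, 41.7% and 33.3% called, so that both knockout shares lay below those of all genes. The WT rises were led by Lcn2 (2.44 ± 2.13 to 418 ± 138 CPM) and Mt1 (11.4 ± 4.7 to 101 ± 69.4 CPM), which also respond to inflammation, and the falls by Dusp1 (log2 change -1.13) and Tat (-0.94). Of 10 pericentral genes in WT 5 fell and 1 rose (60% called, beside 47.7% of all genes), the falls led by Cyp27a1 (-1.63) and Rgn (-1.45), and of 10 periportal genes 7 fell and 1 rose (80% called), the falls led by Hal (-2.04) and Cps1 (-1.72).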

How the data were processed

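Total RNA from 44 mouse livers was made into strand-specific libraries, per the labels' protocols. The authors deposited raw read counts per gene. The submitters' processing notes name FastQC, STAR, HTSeq, edgeR, limma and the builds GRCm39 and mm39, and versions and counting settings are not given in the sources used here. Of 35249 gene identifiers 34373 were matched to a symbol. The 10 members and the gene lists were chosen with earlier results of these data known.

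Counts were fitted with edgeR 4.0.16 (R 4.3.3) over all 44 libraries, with 1 mean per group, TMM factors of 0.799 to 1.34 and the quasi-likelihood test, after filterByExpr at a minimum count of 10. This kept 14862 genes and 99.8% of counts. Each of the 19 comparisons had its own Benjamini-Hochberg adjustment, with a threshold of 0.05. Standard errors were derived from the log2 change and its F statistic. A gene with 3 counts or fewer in every library of a group was taken as at the floor, which covers counting error only. The text names all members, up to 3 genes called higher and 3 lower per list in WT on CD-HFD against control, and genes among the 3 closest to a member by Pearson's r of log2 CPM, of which 1 is not reported here. H6pd, Hsd3b1 and Hsd3b6 were named after their values were seen.

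Alternatives were other scalings, no filter, DESeq2 1.42.0, a replicate block, fits on the compared groups, the clock ratio as a covariate and leaving out each library. Leaving out the 4 WT control libraries with a clock ratio above 0, or 4 libraries that stood apart, was chosen after seeing the data. Exon lengths, shared sequence and promoter windows came from GRCm38 annotation. The fit was also run on simulated data, and the outcome is not reported here.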

Additional observations from a re-analysis of the deposited data

Results flagged for a closer look

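Of 70 groups of 4 to 6 samples, 8 held a sample whose gap to the next was large for the range of its group, and chance gives about 1 in 20. Hsd3b5 was 136 CPM in WT CD-LFD replicate 3 (next 59.9 CPM), 8.95 CPM in WT CD-HFD replicate 3 (next 2.99 CPM) and 4.16 CPM in Ripk3KO CD-HFD replicate 1 (next 0.175 CPM). MlklKO control replicate 6 stood apart for 3 genes: Hsd3b2 was 49.8 CPM (next 18.4 CPM), Hsd3b3 184 CPM (next 107 CPM) and Akr1c6 977 CPM (next 737 CPM). Akr1c6 was 1240 CPM in Ripk3KO control replicate 4 (next 964 CPM), and Hsd3b7 was 3.17 CPM in WT CD-LFD replicate 4 (next 1.46 CPM).

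The diet response differed between MlklKO and WT by the interaction test for Hsd3b2 on CD-HFD (log2 difference 1.89) and on CD-LFD (2.32), and for Hsd3b3 on CD-LFD (0.87). Without the 4 WT control libraries with a clock ratio above 0 none of the 3 passed (1.05, 1.51 and 0.48, adjusted p 0.29, 0.0549 and 0.386). The first was also lost without any 1 of the MlklKO CD-HFD livers, and the third when any of 19 of 22 libraries was left out.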

How the results depend on the processing

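Of 479 values of single genes under other settings, 429 kept direction and side of the threshold, 32 lost the call, 14 gained it and 4 changed sign. Those 4 were Akr1c6 on CD-HFD in WT (0.07) and Ripk3KO (0.04) and Hsd3b2 on CD-HFD in Ripk3KO (0.20), all by library size, and Hsd3b5 in control Ripk3KO against WT livers (0.28) with the clock covariate. None of these 4 had passed the test, and the cause was not tested.

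Members called changed by over 1.5 times as follows. Library size gave 5 for MlklKO CD-LFD against control, 1 for control Ripk3KO against WT, 5 for control MlklKO against WT, 1 for CD-LFD MlklKO against WT and 1 for the MlklKO by CD-LFD interaction. DESeq2 gave 1 for control Ripk3KO against WT and 1 for CD-LFD MlklKO against WT, RLE factors gave 1 for the former, and no filter gave 1 for the former and 1 for the MlklKO by CD-LFD interaction. Compared groups alone gave 3 for Ripk3KO CD-HFD against CD-LFD, 0 for the MlklKO by CD-HFD and 1 for the MlklKO by CD-LFD interaction. Without the WT control libraries with a clock ratio above 0 these interactions gave 0 and 1, and without the 4 libraries that stood apart the first gave 0 and control MlklKO against WT gave 5.

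Leaving out 1 library gave 0 to 1 for control Ripk3KO against WT, 3 to 5 for control MlklKO against WT, 0 to 2 for CD-LFD MlklKO against WT, 0 to 2 for the MlklKO by CD-HFD and 1 to 2 for the MlklKO by CD-LFD interaction. Of 645 single-gene values, 38 then lost the call and 7 gained it.

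Counts over all genes moved by over 1.5 times in 14 comparisons, with these extremes. For CD-LFD against control, 4117 in WT went from 1814 to 6384, and 3576 in Ripk3KO from 1390 (without CD-LFD replicate 3) to 4423. For CD-HFD against CD-LFD, 1312 in Ripk3KO went from 510 (without CD-LFD replicate 2) to 2821, and 3523 in MlklKO from 1934 (without CD-HFD replicate 4) to 5163. For Ripk3KO against WT, 665 on control went from 45 to 1024 (without WT control replicate 2), 164 on CD-LFD from 9 (clock covariate) to 267, and 56 on CD-HFD from 15 (without Ripk3KO CD-HFD replicate 5) to 252. For MlklKO against WT, 4029 on control went from 1739 to 4444, 381 on CD-LFD from 16 (clock covariate) to 873, and 0 on CD-HFD from 0 to 2. For the Ripk3KO interactions, 71 on CD-HFD went from 17 (without Ripk3KO CD-HFD replicate 5) to 204 and 4 on CD-LFD from 0 to 238. For the MlklKO interactions, 612 on CD-HFD went from 195 (without MlklKO CD-HFD replicate 4) to 1265 and 1256 on CD-LFD from 741 to 1868 (both upper values without MlklKO control replicate 6).

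Same-numbered samples were alike only in part: 64 such pairs had correlations of -0.33 to 0.545 (median 0.0315), and 22 were over 0.1. In the WT diet comparisons replicate 3 had 0.441, 0.488 and 0.383 and replicate 6 had 0.427, 0.545 and 0.417. Replicate 1 had -0.154, 0.057 and -0.018 there. The replicate block gave 1 for the MlklKO by CD-LFD interaction, 7 for Ripk3KO CD-HFD, 5 for Ripk3KO CD-LFD and 3 for MlklKO CD-LFD against control. Depth limits Hsd3b7 and Hsd3b5 on CD-HFD, where a library could hold 1 count.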
